A study of Mus musculus with 24 samples.

Results

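The 9 genes described here encode proteins that start, carry forward or stabilise complement activation before and at the C3 step: C1qa, C1qb, C1qc, C1ra, C1s1, C4b, C2, Cfb and Cfp. They were chosen by name, not by a threshold on their values, but with earlier results of these data known. All 9 were found among the 18723 genes of the deposited expression table, with reads in every tumour. The table covers 24 tumours of Lewis Lung Cancer, a mouse lung carcinoma cell line, grown in wild-type mice and profiled by bulk RNA sequencing. The 8 tumours of the triple group received poly I:C (a synthetic mimic of viral double-stranded RNA), anti-PD-1 (an immune checkpoint antibody) and C5aR1 blockade. The treatment protocol names the C5aR1 blocker as PMX53, at 1 mg/kg every day from day 6. The 8 tumours of the dual group received poly I:C, at 50 µg on days 11 and 15, and anti-PD-1, at 100 µg on days 7, 10 and 14, as did the triple group. The 8 tumours of the vehicle group received vehicle. The labels give no age or sex, and no group received C5aR1 blockade alone, so its difference from the dual group is measured only on top of poly I:C and anti-PD-1.

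Complement is a cascade of plasma and tissue proteins that marks surfaces and releases inflammatory peptides. In the classical pathway, C1q binds a target and its attached proteases C1r and C1s cut C4 and C2, which then form an enzyme that cuts C3. In the alternative pathway, factor B supplies the protease of a second C3-cutting enzyme, which properdin stabilises; C5a, released further down, acts on the receptor C5aR1. In tissues, C1q is made largely by macrophages, while C1r, C1s, C3, C4 and factor B are made by the liver and by several local cell types, fibroblasts among them.

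The genes lie in 4 places in the genome (build GRCm39). C1qb (chr4:136607440-136613498), C1qc (chr4:136617115-136620376) and C1qa (chr4:136623228-136626114) stand side by side on the minus strand of chromosome 4. C1ra (chr6:124489364-124500402, plus strand) and C1s1 (chr6:124507304-124519318, minus strand) are neighbours on chromosome 6. C4b (chr17:34947354-34962856), Cfb (chr17:35075350-35081494) and C2 (chr17:35081580-35117241) lie on the minus strand of chromosome 17, and Cfp (chrX:20791693-20797794) on the minus strand of chromosome X. RefSeq promoter sequences (build GRCm38.p6) were matched for 5 of the 9 genes, C1qb, C1qc, C1ra, C1s1 and Cfp. The 250 bases before the start of C1qb and C1qc, and of C1ra and C1s1, are printed because the levels of each pair rose and fell together from tumour to tumour, at Pearson's r of 0.87 to 1.00 in each group of 8. They are written in lower case, 5′ to 3′ on the strand of the gene, with no base singled out; 2 starts are listed for C1s1, and the first is shown.
C1qb promoter, chr4:136886201-136886450, minus strand: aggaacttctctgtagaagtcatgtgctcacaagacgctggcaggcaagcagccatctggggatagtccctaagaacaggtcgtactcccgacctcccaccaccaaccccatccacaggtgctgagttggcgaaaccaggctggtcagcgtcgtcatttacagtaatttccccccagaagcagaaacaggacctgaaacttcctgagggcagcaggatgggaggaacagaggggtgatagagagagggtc
C1qc promoter, chr4:136892915-136893164, minus strand: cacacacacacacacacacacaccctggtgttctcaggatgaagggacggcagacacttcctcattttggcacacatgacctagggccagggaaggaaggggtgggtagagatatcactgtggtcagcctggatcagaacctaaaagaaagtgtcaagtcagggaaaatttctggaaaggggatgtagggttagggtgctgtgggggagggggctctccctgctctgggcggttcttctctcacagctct
C1ra promoter, chr6:124512371-124512620, plus strand: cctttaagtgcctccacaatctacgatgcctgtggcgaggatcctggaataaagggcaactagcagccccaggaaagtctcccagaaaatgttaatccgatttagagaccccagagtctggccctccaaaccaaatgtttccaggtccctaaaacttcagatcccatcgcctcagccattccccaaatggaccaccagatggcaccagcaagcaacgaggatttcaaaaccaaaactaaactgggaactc
C1s1 promoter, chr6:124542360-124542609, minus strand: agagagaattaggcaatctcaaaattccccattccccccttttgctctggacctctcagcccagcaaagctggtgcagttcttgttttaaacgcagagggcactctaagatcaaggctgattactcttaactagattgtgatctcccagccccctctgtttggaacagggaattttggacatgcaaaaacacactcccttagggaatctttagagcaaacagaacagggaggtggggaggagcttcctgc

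Each library held 14438318 to 19254090 reads, and a level is given as CPM (reads scaled to library size) worked back exactly from the deposited log2 values. Library numbers run in blocks that coincide with the groups, so any batch in library preparation cannot be told apart from the treatment. Of 11 markers listed for lung adenocarcinoma and the Lewis line, 8 were measured. Vim, a mesenchymal gene, had median levels of 2963, 2593 and 2406 CPM in triple, dual and vehicle tumours, while the epithelial genes Epcam, Cdh1, Krt7, Krt8 and Krt19 had group medians of 0 to 2.76 CPM. Krt18, another epithelial gene, had medians of 19.2, 29.2 and 41.96 CPM, and Napsa, a gene of lung epithelium, 22.2, 7.14 and 10.03 CPM. Skeletal muscle markers took 0.0268 to 0.274% of reads in triple tumours, 0.0266 to 0.101% in dual and 0.0161 to 0.0607% in vehicle tumours. The 5 triple tumours T_352, T_353, T_354, T_355 and T_362 lay above every dual and vehicle tumour in that share; they are called muscle-rich below, and results for the 9 genes are given with and without them where that changes a call. Leaving them out keeps only T_331, T_360 and T_363 of the triple group. The tumours left out then include T_352, the highest for each of the 9 genes. In bulk tissue, fewer cells of a type and less RNA per cell cannot be told apart. Nothing beyond a mouse number states that the tumours come from separate animals, so p-values measure the spread between these tumours.

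Per kilobase of exon, the C1q chains were by far the most abundant of the 9 genes and C2 and factor B the least. In triple tumours the median levels in CPM per kilobase were 406 for C1qa, 335 for C1qb, 184 for C1qc, 98.0 for Cfp, 62.9 for C1s1, 40.9 for C1ra, 33.4 for C4b, 5.83 for C2 and 5.21 for Cfb. In dual tumours they were 318 for C1qa, 264 for C1qb, 134 for C1qc, 45.6 for Cfp, 34.2 for C1s1, 32.6 for C1ra, 8.24 for C4b, 2.17 for C2 and 4.03 for Cfb. In vehicle tumours they were 428 for C1qa, 379 for C1qb, 174 for C1qc, 40.8 for Cfp, 28.7 for C1s1, 19.9 for C1ra, 5.29 for C4b, 0.547 for C2 and 0.546 for Cfb. The order of the medians was the same in all 3 groups except that Cfb stood above C2 in dual tumours; in vehicle tumours those 2 were nearly equal. C1qa exceeded 98.5% of all measured genes in mean log2 level, and Cfb exceeded 43.3%.

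Against vehicle, Cfb, C2 and C1ra, which encode proteases of the cascade, were called higher in both treated groups, C1s1, C4b and Cfp in triple tumours, and no C1q chain was called higher. In dual tumours 3 of the 9 genes were called higher (Cfb, C2 and C1ra) and none lower, at a limma p adjusted over all genes under 0.05, where 15% of all genes were called higher and 15.8% lower. The median log2 fold change over the 9 was 0.35, against -0.03 over all genes. In triple tumours 6 of the 9 (Cfb, C2, C4b, Cfp, C1ra and C1s1) were called higher than in vehicle and none lower, where 23% of all genes were called higher and 22.8% lower. Their median log2 fold change was 1.19, against -0.02 over all genes. Both comparisons use the same 8 vehicle tumours.

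**Figure D1:**
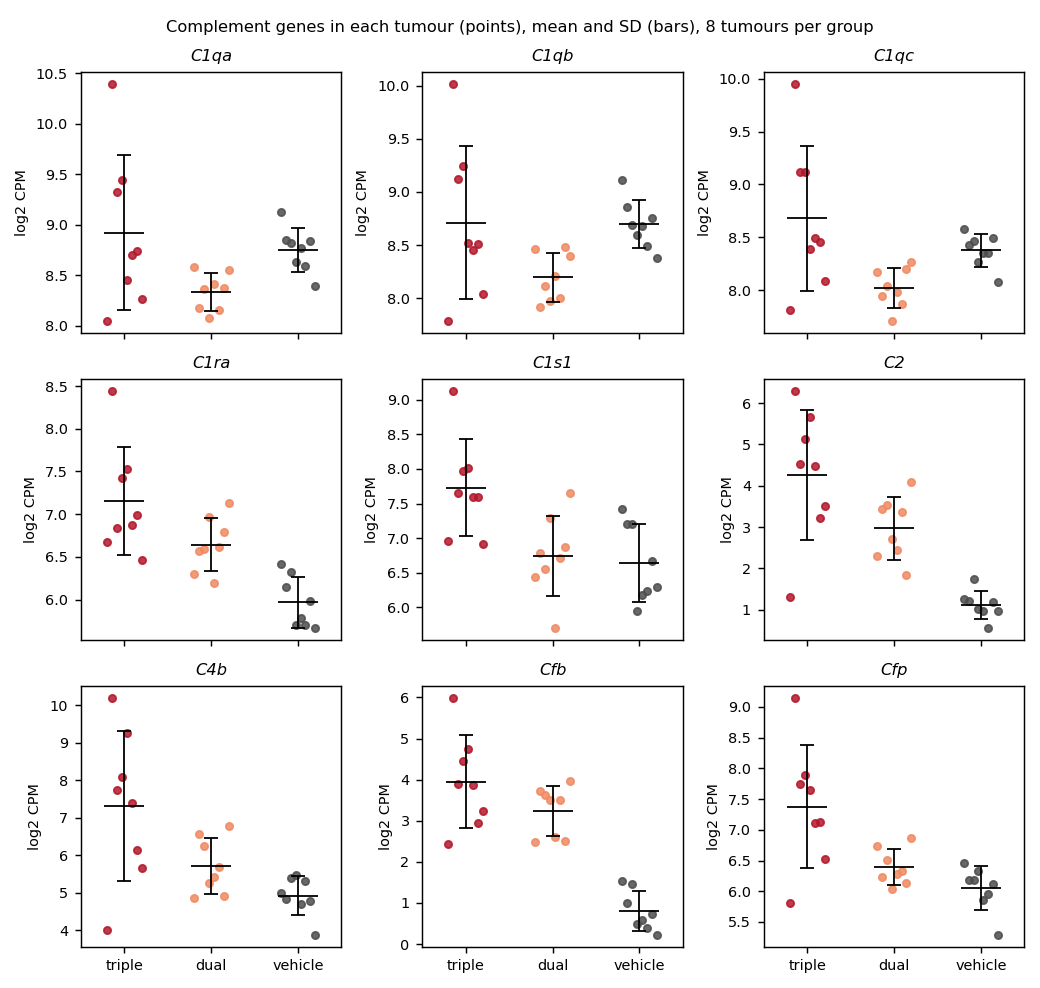
Level of each complement gene (log2 CPM, vertical axis) in each of the 8 triple, 8 dual and 8 vehicle tumours (points), with the group mean and SD (black bars). Cfb and C2 lie above every vehicle tumour in all 8 dual tumours, while the C1q chains of all 8 dual tumours lie below the vehicle median.

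C1qa, C1qb and C1qc encode the 3 chains of C1q, the recognition protein of the classical pathway. C1qa was at 265 CPM in the lowest, 422 in the median and 1347 in the highest triple tumour. It was at 271, 330.6 and 384 CPM in dual tumours and at 336, 445 and 557 CPM in vehicle tumours. The dual tumours were packed at the low end, with all 8 below the vehicle median and 5 of 8 below the lowest vehicle tumour. The triple tumours straddled the vehicle range, with 3 above and 2 below it. C1qb was at 220, 365 and 1039 CPM in triple, at 241, 287 and 357.3 CPM in dual and at 333, 412 and 554 CPM in vehicle tumours. C1qc was at 225, 356.2 and 991 CPM in triple, at 209, 258 and 307 CPM in dual and at 271, 336 and 383 CPM in vehicle tumours. The 3 chains thus shared a narrow low band in dual tumours and a wide spread in triple tumours. They differed in that 6 of 8 triple tumours lay above the vehicle median for C1qc, and 3 of 8 for C1qa and for C1qb.

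The log2 fold change of dual against vehicle was -0.42 ± 0.22 (SE, n = 8 each) for C1qa, -0.50 ± 0.21 for C1qb and -0.36 ± 0.20 for C1qc, with limma adjusted p = 0.154, 0.0737 and 0.173. None was called in this fit, which shares 1 spread with the triple group, whose SD for C1qa was 0.77 against 0.19 in dual and 0.22 in vehicle tumours. An exact permutation test of the same 16 tumours, adjusted over all genes, called all 3 chains lower, with adjusted p = 0.0055 for C1qa, 0.00496 for C1qb and 0.00799 for C1qc; by that test 20.4% of all genes were called lower. All 3 were also called lower by limma when the 2 groups were fitted alone, where 21% of all genes were called lower, and when the muscle-rich tumours were left out of the fit to all groups, where 20.6% were. Against vehicle, the triple group's C1qa, C1qb and C1qc differed by 0.17, 0.02 and 0.30 on the log2 scale, with limma adjusted p = 0.551, 0.959 and 0.212. Without the 5 muscle-rich tumours these values turned to -0.42, -0.60 and -0.24. C1qa (limma adjusted p = 0.0281) and C1qb (limma adjusted p = 0.00510) were then called lower, where 15.2% of all genes were called lower. Of the triple group this fit kept only T_331, T_360 and T_363, and T_331 was the group's lowest tumour in all 3 chains.

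Macrophage markers, all 20 of them measured and none at 0 in any tumour, took 0.265 to 1.12% of reads in triple tumours, 0.282 to 0.374% in dual and 0.358 to 0.471% in vehicle tumours. Of the 20, 10 were called higher and 1 lower in triple than in vehicle tumours, where 23% of all genes were called higher and 22.8% lower. In dual against vehicle tumours 3 were called higher and 5 lower, where 15% of all genes were called higher and 15.8% lower. Set against the mean log2 level of these markers in the same tumour, C1qb was lower in triple than in vehicle tumours by 0.45 on the log2 scale, with medians of 1.995 and 2.42 (exact permutation adjusted p = 0.0182 over 9 tests; 0 of 8 triple tumours above the vehicle median). The corresponding differences were -0.29 for C1qa and -0.16 for C1qc, with exact permutation adjusted p = 0.0904 and 0.228. For dual against vehicle they were -0.16, -0.24 and -0.10 for C1qa, C1qb and C1qc, with exact permutation adjusted p = 0.17, 0.0904 and 0.192. The choice of markers moved these values: against Adgre1, Csf1r, Mertk and Cd68 alone, all 3 chains were lower in both treated groups than in vehicle, by -0.89, -1.04 and -0.76 in triple and by -0.36, -0.45 and -0.30 in dual tumours (largest exact permutation adjusted p = 0.0104). Without the muscle-rich tumours the C1qb difference of triple from vehicle was -0.39, with exact permutation adjusted p = 0.164. With fewer triple tumours the smallest p this test can give is larger, so the lost call does not show that the difference shrank.

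The chains also shifted against each other. The log2 ratio of C1qb to C1qc had a median of 0.03 in triple tumours, with a range of -0.05 to 0.13, against 0.31 in vehicle tumours, with a range of 0.15 to 0.53, so the groups did not overlap. Its difference between triple and vehicle was -0.29 (exact permutation adjusted p = 0.0014 over 9 tests). The dual tumours lay between, with a median of 0.18, and differed from vehicle by -0.15 (exact permutation adjusted p = 0.042), a call lost when any of 12 single tumours was left out. Triple differed from dual by -0.14 (exact permutation adjusted p = 0.0354), a call lost without triple tumour T_353, T_360 or T_363. The ratio of C1qa to C1qb was higher in triple than in vehicle tumours by 0.15 on the log2 scale, and that of C1qa to C1qc was lower by 0.13, with exact permutation adjusted p = 0.0354 and 0.0392; these calls were lost without any of 3 and 8 single tumours.

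**Figure D2:**
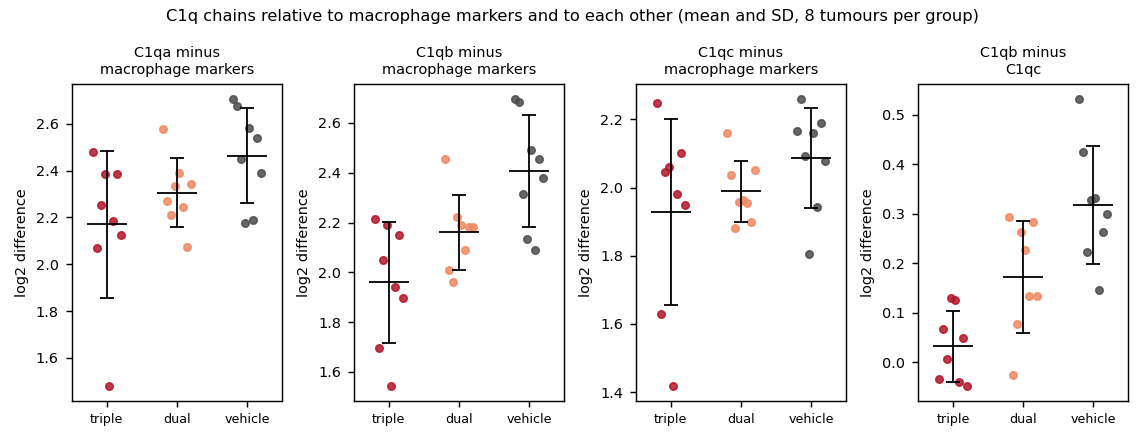
Log2 level of each C1q chain minus the mean log2 level of 20 macrophage markers in the same tumour, and C1qb minus C1qc in the last panel (points are tumours, black bars the mean and SD of 8). The last panel has every triple tumour, at 0.13 or below, under every vehicle tumour, at 0.15 or above.

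C1ra and C1s1 encode the mouse C1r and C1s proteases that C1q carries. C1ra was at 87.9, 122 and 349 CPM in the lowest, median and highest triple tumour, at 73.4, 97.1 and 140 CPM in dual and at 50.9, 59.3 and 85.5 CPM in vehicle tumours. All 8 triple tumours and 6 of 8 dual tumours lay above the highest vehicle tumour; 4% of all genes had every triple above every vehicle tumour. C1ra was higher than in vehicle by 1.19 ± 0.21 in triple (2.28-fold, limma adjusted p = 7.53e-05) and by 0.68 ± 0.21 in dual tumours (1.6-fold, limma adjusted p = 0.0142) on the log2 scale. C1s1 was at 120, 197 and 562 CPM in triple, at 51.8, 107 and 201 CPM in dual and at 61.5, 89.7 and 171 CPM in vehicle tumours. Its dual and vehicle ranges overlapped almost wholly, with a log2 difference of 0.10 ± 0.28 and a 95% interval of -0.48 to 0.69. C1s1 was higher in triple than in vehicle tumours by 1.09 ± 0.28 (2.13-fold, limma adjusted p = 0.00335), and 6 of 8 triple tumours exceeded every vehicle tumour. Fibroblast markers, all 12 measured and none at 0, took 0.463 to 4.54% of reads in triple, 0.483 to 1.37% in dual and 0.893 to 1.76% in vehicle tumours. The list was divided: against vehicle, 4 were called higher and 4 lower in triple, where 23% of all genes were called higher and 22.8% lower. In dual against vehicle 1 was called higher and 4 lower, where 15% of all genes were called higher and 15.8% lower. With a skeletal muscle score as a covariate the C1ra difference of triple from vehicle was 0.82 (limma adjusted p = 0.0188) and that of C1s1 was 0.54 (limma adjusted p = 0.253). Without the muscle-rich tumours C1ra was still called (0.70, limma adjusted p = 0.00602) and C1s1 was not (0.52, limma adjusted p = 0.248). An antisense gene, Gm16567, overlaps C1s1. C1s2, a near copy, had a median of 0.694, 0.172 and 0.112 CPM in triple, dual and vehicle tumours. It was called higher in triple than in vehicle tumours (2.41, limma adjusted p = 0.000362) and than in dual tumours (1.79, limma adjusted p = 0.0154). The rule for counting overlapping reads is not stated.

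C4b encodes mouse complement C4, whose larger fragment attaches to targets, and C2 encodes the protease that joins it. C4b had the widest spread of the 9 genes in triple tumours, at 15.95 CPM in the lowest, 190 in the median and 1186 in the highest tumour, a 74.3-fold range. It was at 29.04, 46.9 and 110 CPM in dual tumours and at 14.6, 30.2 and 44.4 CPM in vehicle tumours. In 7 of 8 triple tumours C4b lay above the whole vehicle range, while tumour T_331 fell within it. C4b was higher in triple than in vehicle tumours by 2.39 ± 0.58 on the log2 scale (5.24-fold, limma adjusted p = 0.00188). The dual group exceeded vehicle by 0.79 ± 0.58, with limma adjusted p = 0.318. The triple call was lost with the muscle covariate (0.89, limma adjusted p = 0.302) and without the muscle-rich tumours (0.76, limma adjusted p = 0.267). C4a, a near copy that could share reads, had medians of 1.62, 1.41 and 1.64 CPM in triple, dual and vehicle tumours and was called in no comparison.

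C2 was at 2.47, 22.6 and 78.8 CPM in the lowest, median and highest triple tumour, at 3.57, 8.396 and 17.03 CPM in dual and at 1.44, 2.12 and 3.31 CPM in vehicle tumours. All 8 dual tumours lay above all 8 vehicle tumours, which held for 5.81% of all genes, and 7 of 8 triple tumours did. C2 was higher than in vehicle by 3.16 ± 0.47 in triple (8.93-fold, limma adjusted p = 1.57e-05) and by 1.86 ± 0.47 in dual tumours (3.62-fold, limma adjusted p = 0.00434) on the log2 scale. With the muscle covariate C2 was still called, at 2.04 in triple and 1.46 in dual tumours (limma adjusted p = 0.00637 and 0.00792). The dual call was lost when values were weighted for counting precision (voom), and C2 had as few as 25 reads in a tumour.

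Cfb encodes factor B, the protease of the alternative pathway's C3-cutting enzyme, and Cfp encodes properdin, which holds that enzyme together. Cfb was at 5.42, 14.7 and 63.9 CPM in the lowest, median and highest triple tumour, at 5.53, 11.4 and 15.5 CPM in dual and at 1.13, 1.54 and 2.85 CPM in vehicle tumours. Every treated tumour exceeded every vehicle tumour. Of all genes, 5.81% had every dual tumour above every vehicle tumour and 4% had every triple tumour above. Cfb was higher than in vehicle by 3.15 ± 0.37 in triple (8.87-fold, limma adjusted p = 9.36e-07) and by 2.44 ± 0.37 in dual tumours (5.44-fold, limma adjusted p = 2.96e-05). Cfb and C2 adjoin on the same strand, and a readthrough gene of an older annotation spans both, so reads may not be fully separated between them. Cfp was at 55.7, 170 and 569 CPM in triple, at 65.9, 79.2 and 117 CPM in dual and at 39.1, 70.7 and 88.2 CPM in vehicle tumours. In 7 of 8 triple tumours Cfp exceeded every vehicle tumour, while dual and vehicle tumours overlapped. Cfp was higher in triple than in vehicle tumours by 1.33 ± 0.29 (2.51-fold, limma adjusted p = 0.000811), and the dual difference was 0.35 ± 0.29 (limma adjusted p = 0.395). The triple call was lost with the muscle covariate (0.54, limma adjusted p = 0.193) and without the muscle-rich tumours (0.43, limma adjusted p = 0.168). Neutrophils and macrophages are known to hold properdin; neutrophil markers took 0.0258 to 0.185% of reads in triple, 0.0480 to 0.103% in dual and 0.00937 to 0.0138% in vehicle tumours, and their part in the Cfp values was not tested.

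Between triple and dual tumours all 9 genes had a positive log2 difference, and 3 were called higher (C1qc, C1s1 and Cfp), where 11.4% of all genes were called higher and 9.97% lower. C1qc differed by 0.66 ± 0.20, C1s1 by 0.98 ± 0.28 and Cfp by 0.98 ± 0.29, with limma adjusted p = 0.022, 0.02 and 0.0227. The other differences were 0.58 for C1qa, 0.52 for C1qb, 0.51 for C1ra, 1.30 for C2, 1.598 for C4b and 0.71 for Cfb, with limma adjusted p of 0.0503 to 0.159. None of the 9 was called with the muscle covariate, where 0.0481% of all genes were called, without the muscle-rich tumours (0.0107% of all genes) or by the exact permutation test (7.21% of all genes). Without triple tumour T_331 all 9 were called higher, where 19.2% of all genes were called higher. The size of this contrast therefore rested on which triple tumours entered it.

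**Figure D3:**
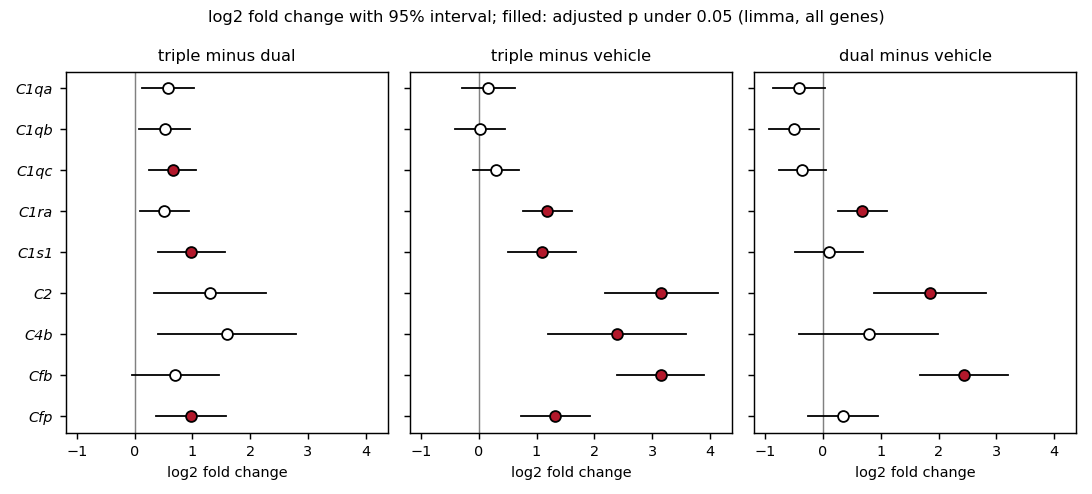
Log2 fold change (horizontal axis, points) with its 95% interval (lines) for each gene in the 3 comparisons; filled points are past a limma p adjusted over all genes of 0.05. Triple against vehicle has 6 filled points, dual against vehicle 3 and triple against dual 3.

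The spread of the triple tumours was shared by all 9 genes. Tumour T_352 was the highest for each of them, and tumour T_331 the lowest for 7 (C1ra and C1s1 were lowest in tumour T_363). The 9 genes together took 0.544% of the reads of tumour T_352 and 0.0992% of those of tumour T_331, with a triple median of 0.21%; the medians were 0.121% in dual and 0.153% in vehicle tumours. Tumour T_352 also had the highest macrophage (1.12%) and fibroblast (4.54%) shares of the triple group and tumour T_331 the lowest (0.265% and 0.463%). Tumours T_352, T_354, T_353 and T_355, which had the 4 highest shares for the complement genes, were all muscle-rich. Over the 8 triple tumours, Pearson's r between pairs of the 9 genes ran from 0.73 to 1.00, with a median of 0.90, and was positive at an exact permutation p adjusted over 108 relations under 0.05 in 33 of 36 pairs (22 by Spearman's rho). Without the 2 tumours farthest from the median of the first gene the lowest r was 0.18 and the median 0.73. How often pairs of other genes were related in these triple tumours was not tested.

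In dual tumours most pairs that passed adjustment lay within blocks of genes. The median r over the 36 pairs was 0.26, with a range of -0.57 to 0.95, and 8 pairs were positive after adjustment (6 by rho). Among them, C1qa, C1qb and C1qc were related at r of 0.86 to 0.89, with rho of 0.79 to 0.83. C1ra and C1s1 were related at r = 0.95 and rho = 0.93 (exact permutation adjusted p = 0.00317 and 0.0134). C2, C4b and Cfb were related at r of 0.86 to 0.93, with rho of 0.93 in each pair. The remaining pair was C1qa and Cfp, with r = 0.80 and rho = 0.67 (exact permutation adjusted p = 0.0391 and 0.13). Leaving out the 2 farthest tumours left r at 0.80 to 0.84, 0.93 and 0.77 to 0.88 in these blocks. Between the C1q chains and C1ra, C1s1, C2, C4b or Cfb no pair passed, with r of -0.57 to 0.10. C1ra and C1s1 had r of 0.61 and 0.62 with Cfb, and neither pair passed. With so few tumours, a pair that did not pass is not shown to be unrelated. The difference in relation between the groups was not tested. In vehicle tumours the median r was 0.76 and 18 pairs were positive after adjustment (11 by rho).

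**Figure D4:**
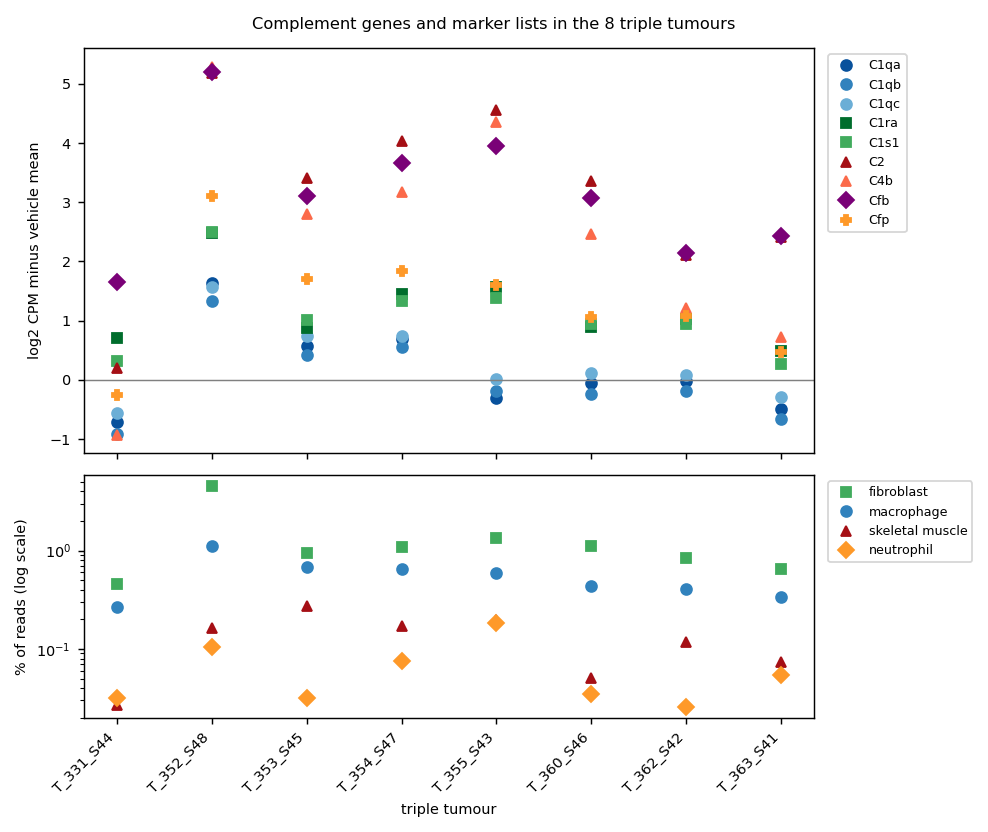
Upper panel: log2 CPM of each complement gene minus its vehicle mean in each of the 8 triple tumours. Lower panel: share of reads taken by marker lists in the same tumours (log scale). All 9 genes are highest in tumour T_352, which also has the highest fibroblast and macrophage shares.

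Serping1 encodes C1 inhibitor, which inactivates C1r and C1s. It was at 30.6, 253 and 1350 CPM in the lowest, median and highest triple tumour, at 29.8, 95.9 and 226 CPM in dual and at 10.3, 22.2 and 39.1 CPM in vehicle tumours. It was higher than in vehicle by 3.45 in triple and 1.95 in dual tumours on the log2 scale (limma adjusted p = 2.89e-05 and 0.00828). Set against the mean of C1ra and C1s1 in the same tumour, Serping1 had a median log2 ratio of 0.74 in triple, 0.04 in dual and -1.92 in vehicle tumours. The ratio was higher than in vehicle by 2.31 in triple (8 of 8 above the vehicle median) and by 1.56 in dual tumours (7 of 8), with exact permutation adjusted p = 0.00155 and 0.00303 over 6 tests. Triple exceeded dual by 0.75 (exact permutation adjusted p = 0.165), and the difference was -0.02 without the muscle-rich tumours.

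**Figure D5:**
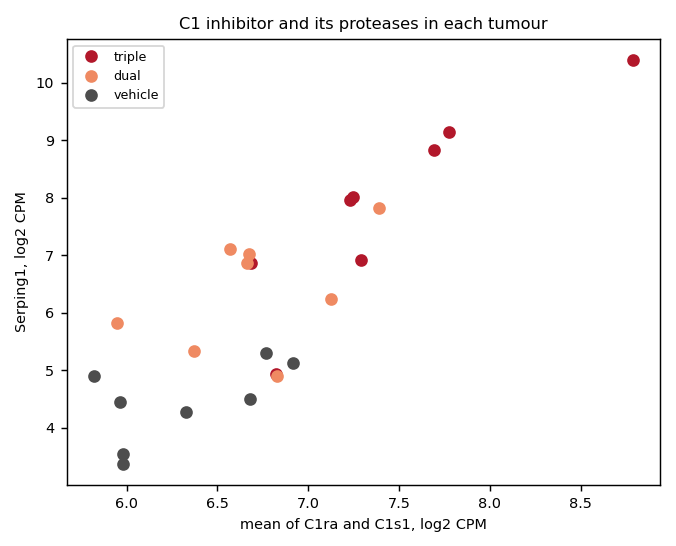
Serping1 (vertical axis) against the mean of C1ra and C1s1 (horizontal axis), both in log2 CPM, with one point per tumour. Vehicle tumours sit low in Serping1 at C1ra and C1s1 levels that overlap those of dual tumours.

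Of 53 other complement genes listed, 39 were measured. In triple against vehicle 14 were called higher and 6 lower (35.9% and 15.4%, against 23% and 22.8% of all genes), with a median log2 fold change of 0.43. In dual against vehicle 5 were called higher and 7 lower, shares of 12.8% and 17.9% that lie near the 15% and 15.8% of all genes, with a median of 0.16. Between triple and dual, 9 were called higher and 2 lower (23.1% and 5.13%, against 11.4% and 9.97% of all genes), with a median of 0.41. C3, the central component that both pathways cut, had medians of 687, 289 and 98.9 CPM in triple, dual and vehicle tumours. It was higher than in vehicle by 2.76 in triple and 1.38 in dual tumours (limma adjusted p = 7.4e-06 and 0.00842), and higher in triple than in dual by 1.38 (limma adjusted p = 0.0176); with the muscle covariate the difference from dual was 0.69 and not called (limma adjusted p = 0.281). Cd46, a membrane regulator of C3b, was lower than in vehicle by 1.27 in triple and by 1.43 in dual tumours (limma adjusted p = 3.65e-05 and 1.64e-05). Its medians were 3.65, 2.94 and 8.76 CPM in triple, dual and vehicle tumours. Cr1l, listed with Cd46 as a membrane inhibitor, had medians of 65.6, 62.1 and 64.7 CPM and was called in no comparison. Cd55, another membrane inhibitor, was higher in triple than in vehicle tumours by 2.15 (limma adjusted p = 0.0035), and this call was lost with the muscle covariate (0.64, adjusted p = 0.453).

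Of 11 receptor genes measured, 7 were called higher and none lower in triple than in vehicle tumours, where 23% of all genes were called higher. C5ar1, the target of PMX53, had medians of 111, 52.0 and 31.7 CPM in triple, dual and vehicle tumours, and was higher than in vehicle by 1.75 in triple and 0.78 in dual tumours (limma adjusted p = 1.36e-05 and 0.0242); the dual difference was 0.57 and not called with the muscle covariate (limma adjusted p = 0.0553). C3ar1, the C3a receptor, and Itgam and Itgb2, the chains of complement receptor CR3, were higher in triple than in vehicle tumours by 1.49, 1.49 and 1.30 (limma adjusted p at most 9.05e-05). Their dual differences were 0.42, 0.55 and 0.16, with limma adjusted p = 0.228, 0.114 and 0.619. Masp1, a lectin pathway protease, was lower in triple tumours, by 0.76 against vehicle and by 0.64 against dual (limma adjusted p = 0.00399 and 0.0299); neither was called with the muscle covariate. Cfd, which encodes the factor D that cuts factor B, was called in no comparison and had medians of 4.26, 3.72 and 3.24 CPM. Of 10 interferon-induced genes, 9 were called higher in triple and 6 in dual than in vehicle tumours, against 23% and 15% of all genes. With the muscle covariate the triple calls of Cxcl10, Ifit1, Ifit3 and Mx1 were lost (limma adjusted p of 0.0889 to 0.559), and no dual call was. Of 9 hepatocyte markers 2 were measured, Trf and Apoa2, and neither was called; Apoa2 stayed at 1.33 CPM or below in every tumour.

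The genes whose levels varied most like each complement gene were found from values centred on their group mean over the 24 tumours, among 9212 genes of at least median level. C1qb was most like Lyz2 (Pearson r = 0.97), the lysozyme gene of myeloid cells, and C1qa and C1qc both had Ly86 and Rgs10 among their nearest 3, at r of 0.94 to 0.95. C1ra was most like Pdgfrb, a receptor of fibroblasts and pericytes (r = 0.88), with Olfml2b and Mgst1 next (r = 0.88 and 0.86). C1s1 was most like Sqor (r = 0.90), with Mgst1 and Pdgfrb next (both r = 0.87). C4b was most like Col14a1 and Pi16 (both r = 0.97), a collagen gene and a gene of fibroblasts. C2 was most like Ptk2b (r = 0.95), Cfb like Timp3 and Ripk3 (both r = 0.95), with C3 next (r = 0.94), and Cfp like Il11ra1 (r = 0.97) with Tlr2 next (r = 0.96). These values describe the same 24 libraries, share their depth and rest in part on the wide spread of the triple tumours.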

How the data were processed

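The authors deposited 1 table of log2 values for 18723 genes in 24 tumours. Per the submitters' processing notes, limma, edgeR, featureCounts 1.6.0, STAR 2.7.9a and FastQC 0.11.8 were used with build GRCm39; per the labels, libraries came from a stranded mRNA kit. Counting settings and filters are not given in the sources used here. The deposited log2 values are CPM with a prior of 0.5 reads on scaled library sizes: they gave whole reads within 0.01 in 100% of values. Reads per tumour were 14438318 to 19254090.

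From the log2 values, 1 mean per group was fitted with limma 3.58.1 (R 4.3.3; variance trend, Benjamini-Hochberg over all genes, adjusted p under 0.05), after a check on simulated data. Single values were compared by 2-sided exact permutation over 12870 assignments of 8 against 8 tumours. The smallest p these permutations can give is 0.000155. Without the 5 muscle-rich tumours there are fewer assignments and the smallest p is larger. Exon lengths came from GENCODE annotation of GRCm38, matched by gene ID. Figures used Python 3.11.15 and matplotlib 3.10.9. The members and the gene lists were chosen with earlier results of these data known. The named genes were the members, the 8 listed complement genes with the smallest adjusted p, and Serping1, C3, Cfd, Masp1 and Cd55. Gm16567, C1s2, C4a, Cr1l and some markers were named for context. Of the genes this rule names, 1 is not reported here. Alternatives covered scaling, weights, filters, covariates, thresholds, tests and left-out tumours. The labels' mouse numbers each occur once and pair nothing.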

Additional observations from a re-analysis of the deposited data

Results flagged for a closer look

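In 3 of 51 groups of 8 tumours, each holding 1 gene or ratio, the extreme tumour stood apart from the rest; chance alone sets about 1 group in 20 apart in this way. Triple tumour T_355 was the lowest in the log2 level of C1qa relative to macrophage markers, at 1.48, with a gap to the next tumour of 0.591 of the group's range. The same tumour was the lowest in the log2 ratio of C1qa to C1qb, at -0.06, with a gap of 0.595 of the range; without it, triple exceeded dual in that ratio by 0.11. Dual tumour D_370 was the lowest of its group in the ratio of C1qa to C1qb, at -0.11, with a gap of 0.594 of the range; without it, dual exceeded vehicle by 0.12.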

How the results depend on the processing

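For dual against vehicle, with 3 called, the count was 7 with tumour weights or the 2 groups alone (4 higher, 3 lower), 5 with quantile normalization, and 6 (3 higher, 3 lower) with a skeletal muscle or adipocyte score as covariate, without the 5 muscle-rich triple tumours or by exact permutation. The share of all genes called, 30.8% at first, was 49.2% with tumour weights, 41.3% with the 2 groups alone, 31.7% with the muscle covariate, 40.5% without the muscle-rich tumours and 39.9% by exact permutation. Leaving out 1 tumour gave 3 to 5, with 5 without triple tumour T_352. Over all genes, the dual against vehicle calls were 2803 higher and 2957 lower at first. They were 2370 and 3013 with quantile normalization, 3218 and 3298 with the adipocyte covariate, and 3351 and 3444 without T_352. For triple against vehicle, with 6 called, it was 3 with the muscle covariate, where 20.6% of all genes were called against 45.7%, 5 (3 higher, 2 lower) without the muscle-rich tumours and 6 with each tumour left out. For triple against dual, with 3 called, it was 7 with tumour weights, 1 with the 2 groups alone, 6 with a filter at the 25th percentile, 5 with median centring, 6 with quantile normalization, and 0 with the muscle covariate, without the muscle-rich tumours, at adjusted p under 0.01 or by exact permutation. Leaving out 1 tumour gave 2 to 9: 9 without triple tumour T_331, 8 without T_363, 5 without T_362, 6 without dual tumour D_373, and 2 without triple tumour T_353. The cause of these shifts was not tested. Over all genes, median centring changed the triple against dual calls to 1724 higher and 2976 lower, against 2140 and 1867. These counts were 2504 and 2425 with tumour weights, 806 and 568 with the 2 groups alone, and 1792 and 2414 with quantile normalization. With the filter they were 2013 and 2017 of 14042 genes. They were 3598 and 3075 without T_331, 2646 and 2288 without T_363, and 2421 and 2154 without T_362. Without D_373 they were 2307 and 1866, and without T_353 they were 1343 and 1081.

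Directions turned in some uncalled differences. For dual against vehicle, C1s1 was -0.086 with the muscle covariate, -0.14 with the adipocyte covariate and -0.024 to 0.25 with 1 tumour left out, and Cfp was -0.054 with the adipocyte covariate. For triple against vehicle, C1qb was -0.14 with tumour weights, -0.054 with median centring, -0.10 with quantile normalization, -0.43 and -0.41 with the muscle and adipocyte covariates, -0.60 without the muscle-rich tumours and -0.17 to 0.15 with 1 tumour left out. There C1qa was -0.27 with either covariate, -0.42 without the muscle-rich tumours and -0.043 to 0.29 with 1 left out, and C1qc was -0.11 and -0.12 with the muscle and adipocyte covariates and -0.24 without those tumours. For triple against dual without the muscle-rich tumours, C1qa was -0.00015, C1qb -0.10, C4b -0.033 and Cfb -0.061.

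Relative to 4 macrophage markers in place of 20, C1qa, C1qb and C1qc were at -0.36, -0.45 and -0.30 in dual relative to vehicle tumours, and at -0.53, -0.60 and -0.46 in triple relative to dual tumours, and C1qa and C1qc were at -0.89 and -0.76 for triple against vehicle. All were then called. Without the muscle-rich tumours C1qb for triple against vehicle was -0.39 and no longer called, by a test on fewer triple tumours, and C1qc for triple against dual was 0.070. With 1 tumour left out, C1qa for triple against vehicle was -0.34 to -0.19, C1qb for dual against vehicle -0.29 to -0.20, C1qc for dual against vehicle -0.14 to -0.074 and C1qc for triple against dual -0.11 to 0.013.

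Chain and Serping1 ratios were rechecked by alternatives chosen after seeing the data. With 1 tumour left out, C1qa to C1qb was 0.069 to 0.12 for dual against vehicle, 0.13 to 0.19 for triple against vehicle and 0.031 to 0.11 for triple against dual; C1qa to C1qc for triple against vehicle was -0.16 to -0.11; C1qb to C1qc was -0.17 to -0.12 for dual against vehicle and -0.17 to -0.12 for triple against dual. Serping1 to its proteases for triple against dual was 0.51 to 1.08, called without triple tumour T_331, and -0.022 without the muscle-rich tumours.

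No paired analysis was possible because each mouse number occurs once. Robust fitting, no variance trend and median-of-ratios scaling changed no call, and precision weights (voom) ended only the C2 call of dual against vehicle. C2 and Cfb had as few as 25 and 17 reads in a tumour, so their lowest levels carry the largest counting error of the 9 genes.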
